A study of Mus musculus with 8 samples.

Results

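The gene *Trp53*, which encodes the transcription factor p53, and 9 genes that p53 is known to switch on were followed in mouse lung during endotoxin shock. The 10 genes (*Trp53*, *Mdm2*, *Cdkn1a*, *Ccng1*, *Sesn1*, *Trp53inp1*, *Zmat3*, *Phlda3*, *Bax* and *Bbc3*) were chosen by symbol, and each was found once among the 55416 genes of the count tables. p53 is held at a low level in unstressed cells by the ubiquitin ligase Mdm2. When DNA is damaged or the cell is otherwise stressed, p53 accumulates and activates genes for cell cycle arrest, metabolic adjustment and apoptosis, and among them *Mdm2* itself, which closes a negative feedback loop. Much of this control acts on the p53 protein, so that the *Trp53* transcript is not a measure of p53 activity. Peptidylarginine deiminase 4 (PAD4), an enzyme that converts arginine of histones to citrulline, has been described in cultured cells as a co-repressor at p53 targets, *Cdkn1a* among them. The comparison of interest is therefore whether these genes differ in lungs of mice that received a PAD inhibitor.

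RNA-seq of lung was available from 8 mice, which the methods describe as C57BL/6J females of 6 to 8 weeks. The 3 control mice (numbered 1, 2 and 4) received the solvent dimethyl sulfoxide and then saline, and the 3 LPS mice (1, 6 and 7) received lipopolysaccharide at 35 mg/kg. The 2 dual-treated mice (2 and 5) received YW3-56, a PAD inhibitor dissolved in dimethyl sulfoxide, at 10 mg/kg and the same dose of LPS 0.5 h later. Lungs were taken at 24 h. The paper describes the LPS mice as given LPS only, so that YW3-56 and its solvent cannot be told apart in the comparison of dual-treated with LPS lungs. No group received YW3-56 without LPS, and its effect in unstressed lung was not measured. Total counts per library ran from 19061949 to 20908608. Levels are given as CPM, scaled between libraries by edgeR's TMM method, and changes as log2 fold changes (log2FC) with their standard errors (SE). A gene was called when the p-value of edgeR's quasi-likelihood test, adjusted by the Benjamini-Hochberg method over 18560 tested genes, was under 0.05, with no minimum fold change. All 10 genes passed the filter on low counts. The comparisons share samples, so their values are given side by side and are not independent.

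The libraries of LPS mice 6 and 7 stood apart from the other 6. The summed level of 9 genes of squamous epithelium, the keratin gene *Krt13* among them, was 735 CPM in LPS mouse 6 and 2049 CPM in LPS mouse 7. It was 1.01 CPM in LPS mouse 1, between 5.63 and 11.0 CPM in control lungs, and 8.58 and 21.9 CPM in dual-treated lungs. In all control libraries *Krt16*, *Crct1*, *Sprr3* and *Dsg3* were at 0, and 8 of the 9 genes were called higher with LPS, beside 32.6% of all tested genes. The summed level of 7 skeletal muscle genes, the actin gene *Acta1* among them, was 412 CPM in LPS mouse 6 and 1091 CPM in LPS mouse 7, against at most 18.9 CPM in any other library. Of these 7 genes 6 were tested, and all 6 were called higher with LPS, beside the same 32.6% of all tested genes. In both lists the higher sums were those of LPS mice 6 and 7, and LPS mouse 1 was not above the control range. Values with LPS mouse 1 as the only LPS mouse, which is then assumed to vary like the other groups, are therefore given for each of the 10 genes beside those from all LPS mice.

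With LPS, 5 of the 10 p53 genes rose (*Cdkn1a*, *Sesn1*, *Trp53inp1*, *Mdm2* and *Bax*), 3 fell (*Phlda3*, *Trp53* and *Bbc3*), and 2 were not called (*Ccng1* and *Zmat3*). Calls were also frequent among all tested genes, of which 66.5% were called, 32.6% as higher and 33.9% as lower. From LPS to dual treatment, 1 of the 10 genes rose (*Trp53*), 5 fell (*Sesn1*, *Cdkn1a*, *Trp53inp1*, *Mdm2* and *Zmat3*), and 4 were not called. Of all tested genes 59.1% were called in this comparison, 31.7% as higher and 27.4% as lower. In dual-treated against control lungs, *Zmat3* was lower, and 0 of the 10 genes were called higher by edgeR's test at an adjusted p-value under 0.05. At an unadjusted p-value under 0.05, 1 gene was higher and 5 were lower, beside 15.7% and 14.7% of all tested genes. DESeq2 called 0 as higher and 4 as lower, beside 10.3% and 10.4% of all tested genes. Of all tested genes 16.1% were called in this comparison, 9.13% as higher and 7.02% as lower. The median log2FC of the 10 genes was 0.21 with LPS, where that of all tested genes was -0.01. It was -0.30 in dual-treated against LPS lungs, where that of all genes was 0.06, and -0.07 in dual-treated against control lungs, where that of all genes was 0.00. The shares of the 10 genes called with LPS and in dual-treated against LPS lungs (80.0% and 60.0%) thus stood beside a background that was itself high.

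**Figure D1:**
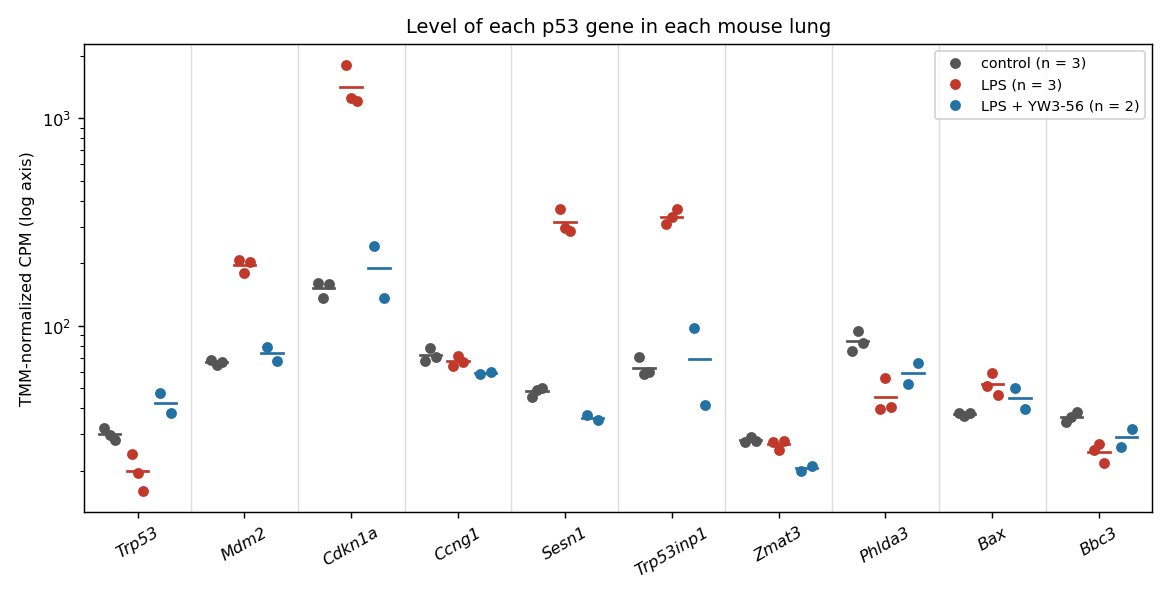
Level of the 10 p53 genes in each of the 8 lungs, as TMM-normalized CPM on a log axis; each point is a mouse and each bar the mean of its group. *Cdkn1a*, *Sesn1*, *Trp53inp1* and *Mdm2* are higher in each LPS lung than in any control or dual-treated lung, and the *Trp53* level is lower in each LPS lung than in any other.

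*Trp53* and *Mdm2*, the factor and its inhibitor, moved in opposite directions. *Trp53* was at 32.1, 29.6 and 28.2 CPM in control lungs, at 24.1, 19.6 and 16.0 CPM in LPS lungs, and at 47.2 and 37.8 CPM in dual-treated lungs. The 3 groups did not overlap, with the LPS lungs lowest and the dual-treated lungs highest. The log2FC of *Trp53* was -0.59 with LPS (SE 0.157, edgeR adjusted p = 0.00788). With LPS mouse 1 as the only LPS mouse it was -0.31 and was no longer called (edgeR adjusted p = 0.143), and over all settings tried the adjusted p ran from 0.00034 to 0.143. Dual-treated lungs had 2.14-fold more *Trp53* than LPS lungs, with a log2FC of 1.10 (SE 0.171, edgeR adjusted p = 0.000503), and against LPS mouse 1 alone the log2FC was 0.81. Against control lungs the log2FC was 0.50 (SE 0.170) with a 95% interval from 0.12 to 0.89, and it was not called (edgeR adjusted p = 0.0746). It was called without LPS mouse 1 or without LPS mouse 7 (edgeR adjusted p = 0.037 and 0.0333).

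*Mdm2* was at 68.6, 65.0 and 66.6 CPM in control lungs and at 208, 180.1 and 202 CPM in LPS lungs, a 2.95-fold rise (log2FC 1.56, SE 0.101, edgeR adjusted p = 1.95e-06). In the dual-treated lungs it was at 79.3 and 67.6 CPM. The LPS lungs were thus highest, and the range of the dual-treated lungs overlapped that of the control lungs. The log2FC against LPS was -1.42 (SE 0.115, edgeR adjusted p = 1.34e-05), and against control 0.14, with a 95% interval from -0.11 to 0.39. *Mdm4*, whose product is the partner of Mdm2 and binds p53 itself, had the reverse pattern, with 137, 138 and 136 CPM in control, 41.7, 53.8 and 52.9 CPM in LPS and 126 and 129 CPM in dual-treated lungs. Its log2FC was -1.47 with LPS (SE 0.109, edgeR adjusted p = 3.74e-06) and 1.37 in dual-treated against LPS lungs (SE 0.118, edgeR adjusted p = 1.82e-05).

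*Cdkn1a* and *Ccng1* act on the cell cycle. *Cdkn1a* encodes p21, an inhibitor of cyclin-dependent kinases through which p53 arrests the cycle, and its level rose most among the 10 genes with LPS. It was at 159.8, 136 and 159 CPM in control lungs and at 1800.1, 1246 and 1213.5 CPM in LPS lungs. In the dual-treated lungs *Cdkn1a* was at 244 and 136 CPM, so that mouse 2 lay above the control range and mouse 5 below its lowest value. The rise with LPS was 9.37-fold (log2FC 3.23, SE 0.244, edgeR adjusted p = 4.2e-06), and 3.92% of all tested genes had a higher log2FC. In dual-treated lungs *Cdkn1a* was 7.49-fold lower than in LPS lungs (log2FC -2.91, SE 0.284, edgeR adjusted p = 3.58e-05). Against control the log2FC was 0.32 with a 95% interval from -0.24 to 0.88, and without dual-treated mouse 2 it was -0.19. *Ccng1*, which encodes cyclin G1, a regulator of Mdm2, was at 67.3, 77.7 and 70.8 CPM in control, at 64.3, 71.2 and 67.2 CPM in LPS and at 58.6 and 59.5 CPM in dual-treated lungs. Its log2FC of -0.09 with LPS was within the spread of the mice. In dual-treated lungs its log2FC was -0.19 against LPS (edgeR adjusted p = 0.117) and -0.28 against control (edgeR adjusted p = 0.0805). With scaling by library size alone the former turned to 0.13, and DESeq2 called the latter at -0.30 (adjusted p = 0.0499).

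Of *Sesn1*, *Trp53inp1* and *Zmat3*, which act in metabolism, autophagy and RNA processing, the former pair rose strongly with LPS. *Sesn1* encodes sestrin 1, which restrains the growth kinase complex mTORC1. It was at 45.6, 49.2 and 49.9 CPM in control lungs, at 364, 297 and 287 CPM in LPS lungs and at 36.9 and 35.3 CPM in dual-treated lungs. The dual-treated lungs were thus below each control lung as well as below each LPS lung. The rise with LPS was 6.55-fold (log2FC 2.71, SE 0.117, edgeR adjusted p = 4.26e-07). The fall from LPS to dual treatment was 8.76-fold (log2FC -3.13, SE 0.141, edgeR adjusted p = 1.46e-06), the steepest of the 10 genes, and 2.80% of all tested genes had a lower log2FC. The log2FC against control was -0.42 (SE 0.126) and narrowly missed the threshold (edgeR adjusted p = 0.0514). It was called without LPS mouse 1 or without LPS mouse 7 (edgeR adjusted p = 0.0178 and 0.0337), and by DESeq2 (adjusted p = 0.0131), with adjusted p-values up to 0.144 over all settings.

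*Trp53inp1* encodes a nuclear protein that promotes p53 activity and autophagy. It was at 70.5, 58.6 and 59.5 CPM in control lungs and at 308, 334 and 363 CPM in LPS lungs, a 5.33-fold rise (log2FC 2.41, SE 0.261, edgeR adjusted p = 3.36e-05). The 2 lungs with dual treatment were unlike, with 97.1 CPM in mouse 2 and 41.6 CPM in mouse 5, on either side of the control range. Both were far below the LPS lungs, with a log2FC of -2.27 (SE 0.303, edgeR adjusted p = 0.0002), which was -3.04 without dual-treated mouse 2. Against control the log2FC was 0.14 (SE 0.279), and it was -0.62 without mouse 2 and 0.60 without mouse 5, the latter called (edgeR adjusted p = 0.03). *Zmat3* encodes a zinc finger protein that binds RNA and takes part in splicing. It was at 27.6, 29.1 and 27.7 CPM in control lungs, at 27.6, 25.1 and 27.9 CPM in LPS lungs and at 19.9 and 21.2 CPM in dual-treated lungs. Control and LPS lungs overlapped, and the dual-treated lungs were lowest. The log2FC of *Zmat3* was -0.39 against LPS (SE 0.1095, edgeR adjusted p = 0.0131) and -0.45 against control (SE 0.109, edgeR adjusted p = 0.0218). Both calls were lost without dual-treated mouse 2 (edgeR adjusted p = 0.0561 and 0.114). The call against control was also lost when control mouse 1, 2 or 4 was left out (edgeR adjusted p = 0.0589, 0.0861 and 0.051). Over all settings the adjusted p ran from 0.00259 to 0.686 against LPS, the latter with scaling by library size alone, and from 0.0038 to 0.114 against control.

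The 3 genes with roles in apoptosis did not share a direction with LPS. *Bax* and *Bbc3* encode mitochondrial promoters of apoptosis, Bax and Puma, and *Phlda3* encodes a repressor of the survival kinase Akt. *Bax* was at 37.8, 36.5 and 37.8 CPM in control lungs, at 51.5, 58.8 and 46.2 CPM in LPS lungs and at 50.2 and 39.7 CPM in dual-treated lungs. Each LPS lung was above each control lung, and the dual-treated lungs overlapped the LPS lungs. The log2FC of *Bax* with LPS was 0.48 (SE 0.120, edgeR adjusted p = 0.00593), and with scaling by library size alone it was 0.19 and not called (edgeR adjusted p = 0.206). From LPS to dual treatment it was -0.21 (SE 0.135, edgeR adjusted p = 0.195), and 0.11 with that scaling.

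*Bbc3* was at 34.2, 36.3 and 38.6 CPM in control lungs, at 25.0, 26.8 and 21.9 CPM in LPS lungs and at 26.1 and 31.8 CPM in dual-treated lungs. It was lower in each LPS lung than in each control lung (log2FC -0.57, SE 0.120, edgeR adjusted p = 0.00229). The dual-treated lungs overlapped the LPS lungs, and the log2FC between them was 0.24 with a 95% interval from -0.06 to 0.54, and it was not called (edgeR adjusted p = 0.15). *Phlda3* was at 75.1, 94.5 and 82.9 CPM in control lungs, at 39.7, 55.9 and 40.5 CPM in LPS lungs and at 52.5 and 66.3 CPM in dual-treated lungs. It was lower in each LPS lung than in each control lung (log2FC -0.89, SE 0.157, edgeR adjusted p = 0.000762). The dual-treated lungs overlapped the LPS lungs, and the log2FC of *Phlda3* between them was 0.39 (SE 0.174, edgeR adjusted p = 0.0797). Without LPS mouse 6 it was 0.56 and was called (edgeR adjusted p = 0.0127), and with LPS mouse 1 as the only LPS mouse it was 0.57 and was called (edgeR adjusted p = 0.0398). Over all settings its adjusted p ran from 0.00794 to 0.51. Against control the log2FC of *Phlda3* was -0.50 (edgeR adjusted p = 0.0825), and it was called without LPS mouse 6 (edgeR adjusted p = 0.0401) and by DESeq2.

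**Figure D2:**
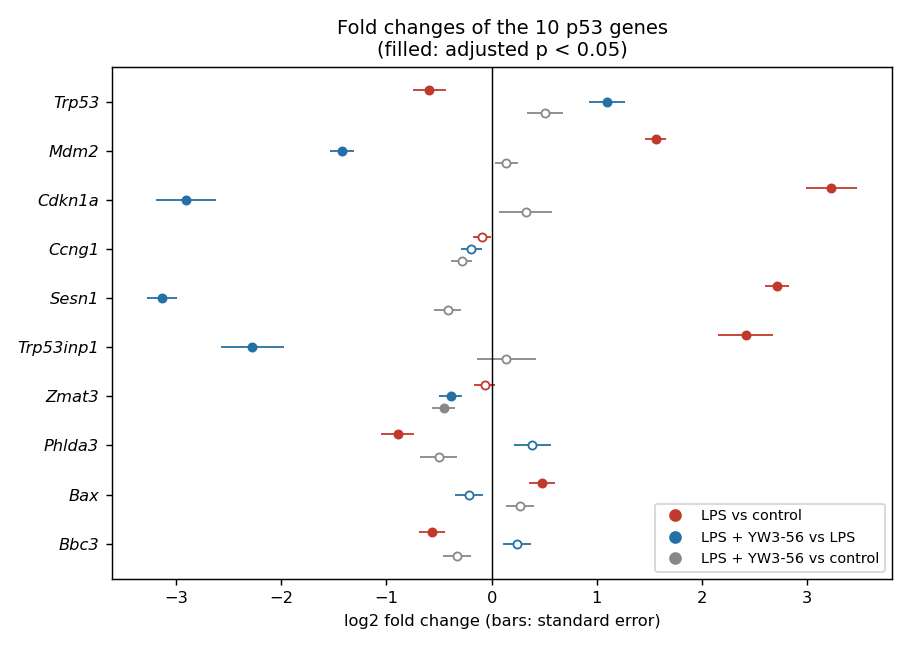
The log2 fold change of each of the 10 p53 genes in the 3 comparisons (x axis), with bars of 1 standard error; filled points had an edgeR adjusted p-value under 0.05. *Sesn1* and *Cdkn1a* lie farthest from 0, at 2.71 and 3.23 with LPS and at -3.13 and -2.91 in dual-treated against LPS lungs, and in dual-treated against control lungs *Zmat3* has a filled point.

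The values of *Cdkn1a*, *Mdm2*, *Sesn1* and *Trp53inp1* did not rest on the libraries with squamous and muscle genes. With LPS mouse 1 as the only LPS mouse, their log2FC with LPS was 3.58, 1.65, 2.92 and 2.30, and in dual-treated against LPS lungs it was -3.25, -1.51, -3.34 and -2.16. All of these were called. Of the remaining genes, *Phlda3*, *Bbc3* and *Bax* were also called with LPS, at -1.08, -0.53 and 0.47, while *Trp53*, *Ccng1* and *Zmat3* were not, at -0.31, -0.16 and -0.02. From LPS to dual treatment *Trp53*, *Phlda3* and *Zmat3* were called, at 0.81, 0.57 and -0.43, while *Bax*, *Bbc3* and *Ccng1* were not, at -0.20, 0.20 and -0.13. The scaling between libraries mattered more for the genes with small changes, since the TMM factors were 0.81 to 0.93 in LPS libraries and 1.06 to 1.11 in the others. With library size alone, the median log2FC of all tested genes was -0.29 with LPS and 0.38 in dual-treated against LPS lungs. *Ccng1* and *Zmat3* were then called lower with LPS, and *Bbc3* and *Phlda3* were called higher in dual-treated against LPS lungs. With the median of all tested genes subtracted, the log2FC of the 10 genes moved by at most 0.0212 between these scalings in any comparison. On that relative scale the change with LPS was 3.24 for *Cdkn1a*, -0.88 for *Phlda3* and 0.49 for *Bax*, and the change from LPS to dual treatment was -3.19 for *Sesn1* and 1.04 for *Trp53*.

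Levels of the 10 genes were compared with each other only as CPM per kilobase of annotated exons. On this scale *Phlda3* had the highest level of the 10 genes in control lungs, with 32.5 CPM per kilobase, followed by *Cdkn1a* with 25.1, *Bax* with 20.1 and *Ccng1* with 16.4. *Sesn1*, *Mdm2*, *Trp53inp1* and *Bbc3* followed between 9.57 and 7.59 CPM per kilobase. The lowest levels were those of *Trp53* and *Zmat3*, with 4.06 and 2.46 CPM per kilobase. Neighbours in this order did not overlap between mice, except *Mdm2* with *Trp53inp1* and *Trp53inp1* with *Bbc3*. In LPS lungs the order was led by *Cdkn1a* with 235 CPM per kilobase, *Sesn1* with 62.7 and *Trp53inp1* with 45.6, and each of these was apart from the next. *Bax* and *Mdm2* overlapped at 28.1 and 25.5 CPM per kilobase, *Phlda3* and *Ccng1* overlapped at 17.5 and 15.4, and *Trp53* and *Zmat3* overlapped at 2.69 and 2.35. In dual-treated lungs *Cdkn1a*, *Bax* and *Phlda3* led with 31.4, 24.2 and 22.9 CPM per kilobase, and *Cdkn1a* overlapped *Bax*, which overlapped *Phlda3*. *Sesn1*, second in LPS lungs, had a mean of 7.16 CPM per kilobase there. It was below *Mdm2* in both mice and overlapped *Trp53inp1*, which overlapped *Mdm2*.

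Among 33 further p53 targets, all of which were tested, 17 rose and 8 fell with LPS, and 7 rose and 16 fell in dual-treated against LPS lungs. Against control, 3 were higher and 3 lower in dual-treated lungs. The shares called were 75.8%, 69.7% and 18.2%, beside 66.5%, 59.1% and 16.1% of all tested genes. Their median log2FC was 0.37 with LPS, -0.35 in dual-treated against LPS and 0.10 in dual-treated against control lungs. The largest rises with LPS were those of *Ddit4*, an inhibitor of mTORC1, *Tnfrsf10b*, a death receptor, and *Gdf15*, a stress cytokine. *Ddit4* was at 34.2, 34.4 and 33.5 CPM in control, 423, 433 and 341 CPM in LPS and 88.0 and 59.0 CPM in dual-treated lungs. Its log2FC was 3.55 with LPS (SE 0.168, edgeR adjusted p = 5.66e-07) and -2.44 from LPS to dual treatment (SE 0.187, edgeR adjusted p = 1.06e-05). It also stayed above control in both dual-treated lungs (log2FC 1.11, SE 0.170, edgeR adjusted p = 0.00269). *Tnfrsf10b* had a log2FC of 3.22 with LPS (SE 0.197, edgeR adjusted p = 1.56e-06) and -2.73 from LPS to dual treatment (SE 0.224, edgeR adjusted p = 1.42e-05). *Gdf15* was at 2.59, 4.32 and 2.67 CPM in control, 37.3, 13.4 and 14.2 CPM in LPS and 4.76 and 4.13 CPM in dual-treated lungs. LPS mouse 1 was thus far above the other LPS mice, and the log2FC of 2.76 with LPS (SE 0.414, edgeR adjusted p = 0.000273) was 2.12 without it. From LPS to dual treatment the log2FC of *Gdf15* was -2.28 (SE 0.468, edgeR adjusted p = 0.00245), and -1.64 without LPS mouse 1.

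The largest falls with LPS among the further targets were those of genes for DNA repair, nucleotide supply and iron handling. *Rrm2b*, which encodes the p53-inducible subunit of ribonucleotide reductase, was at 23.1, 21.7 and 22.4 CPM in control, 5.93, 5.95 and 4.91 CPM in LPS and 14.1 and 17.2 CPM in dual-treated lungs. The groups did not overlap, with a log2FC of -2.001 with LPS (SE 0.144, edgeR adjusted p = 3.2e-06) and 1.48 from LPS to dual treatment (SE 0.154, edgeR adjusted p = 5.08e-05). Its log2FC of -0.52 against control (SE 0.152, edgeR adjusted p = 0.0457) was not called when any control mouse, LPS mouse 6 or dual-treated mouse 2 was left out (edgeR adjusted p from 0.0529 to 0.254). *Steap3*, a ferrireductase gene, had a log2FC of -1.90 with LPS (SE 0.272, edgeR adjusted p = 0.0002) and 1.91 from LPS to dual treatment (SE 0.292, edgeR adjusted p = 0.000434). *Ddb2*, which encodes a sensor of ultraviolet DNA damage, had a log2FC of -1.75 (SE 0.166, edgeR adjusted p = 1.52e-05) and 1.58 (SE 0.179, edgeR adjusted p = 8e-05) in the same comparisons.

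**Figure D3:**
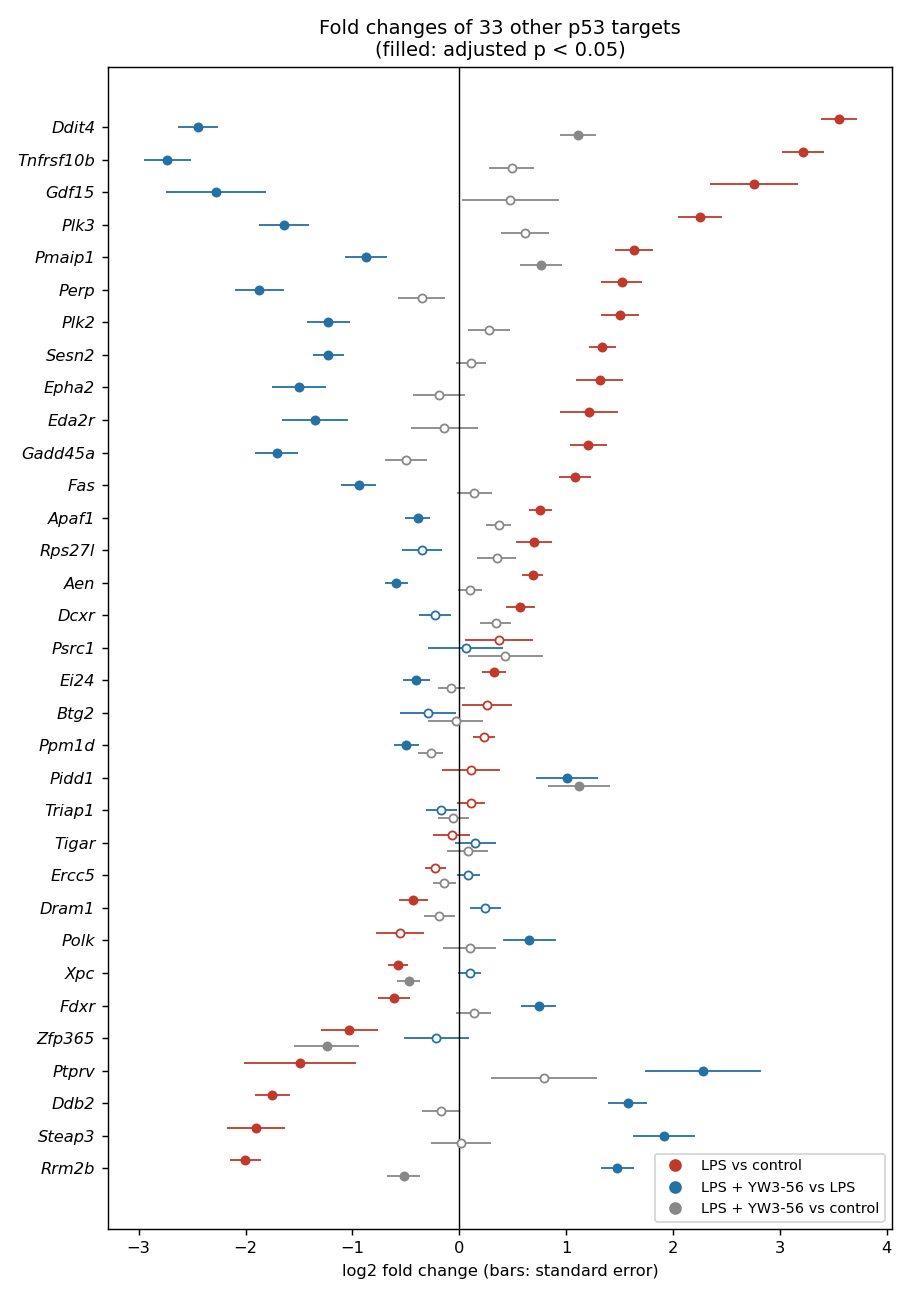
The log2 fold change of 33 further p53 targets in the 3 comparisons (x axis), with bars of 1 standard error; filled points had an edgeR adjusted p-value under 0.05, and genes are ordered by their change with LPS. *Ddit4* is at the top with 3.55 and *Rrm2b* at the bottom with -2.001, and both had the opposite sign in dual-treated against LPS lungs.

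Of 20 genes whose products regulate or resemble p53, 6 rose and 9 fell with LPS, 5 rose and 7 fell in dual-treated against LPS lungs, and 4 were lower in dual-treated than in control lungs. The shares called were 75.0%, 60.0% and 20%, near those of all tested genes (66.5%, 59.1% and 16.1%). Their median log2FC was -0.11, 0.04 and -0.12 in these comparisons. *Rchy1*, a further ubiquitin ligase of p53, had a log2FC of 0.84 with LPS (SE 0.0890, edgeR adjusted p = 2.96e-05) and -0.85 from LPS to dual treatment (SE 0.101, edgeR adjusted p = 0.000104). *Usp7*, a deubiquitinase that acts on p53 and Mdm2, had a log2FC of 0.76 (SE 0.0994, edgeR adjusted p = 0.000115) and -0.80 (SE 0.113, edgeR adjusted p = 0.000283). *Trp73*, which encodes a relative of p53, was 2.13-fold higher with LPS (log2FC 1.09, SE 0.250, edgeR adjusted p = 0.00363) and lower again after dual treatment (log2FC -1.14, SE 0.286, edgeR adjusted p = 0.0073). *Crebbp*, an acetyltransferase that acts as a coactivator of p53, had a log2FC of 0.67 with LPS (SE 0.0974, edgeR adjusted p = 0.000215) and -1.02 from LPS to dual treatment (SE 0.112, edgeR adjusted p = 6.59e-05). The genes that fell most with LPS were *Ppp1r13b*, *Chek2* and *Mdm4*. *Ppp1r13b*, which encodes ASPP1, a protein that directs p53 to apoptotic targets, fell by 2.08 on the log2 scale (SE 0.0972, edgeR adjusted p = 5.55e-07), and remained below control after dual treatment (log2FC -0.71, SE 0.105, edgeR adjusted p = 0.00219). *Chek2*, a DNA damage kinase gene, fell by 1.78 (SE 0.257, edgeR adjusted p = 0.000209) and rose 3.22-fold from LPS to dual treatment (SE 0.276 on the log2 scale, edgeR adjusted p = 0.000668).

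A list of 26 cell cycle genes, which p53 is known to repress through p21 and the DREAM complex, was set beside *Cdkn1a*. With LPS 20 of the 26 rose and 3 fell, with a median log2FC of 1.34. In dual-treated against control lungs 19 of the 26 were higher, with a median log2FC of 1.32, while in dual-treated against LPS lungs 6 rose and 2 fell, with a median of 0.29. The shares called were 88.5% with LPS, 73.1% against control and 30.8% from LPS to dual treatment, beside 66.5%, 16.1% and 59.1% of all tested genes. *Cdk1*, the kinase of mitotic entry, was at 2.10, 2.30 and 1.52 CPM in control, 11.7, 9.01 and 5.86 CPM in LPS and 9.85 and 5.97 CPM in dual-treated lungs. Its log2FC was 2.17 with LPS (SE 0.320, edgeR adjusted p = 0.000248) and 2.00 in dual-treated against control lungs (SE 0.341, edgeR adjusted p = 0.00463), and LPS and dual-treated lungs overlapped. *Ccnb1*, the cyclin partner of Cdk1, had a log2FC of 2.59 (SE 0.376, edgeR adjusted p = 0.000221) and 2.96 (SE 0.396, edgeR adjusted p = 0.00137) in the same comparisons. *Chek1*, a checkpoint kinase gene, rose most, from 0.391, 1.41 and 1.01 CPM in control to 11.3, 9.64 and 11.0 CPM in LPS lungs (log2FC 3.49, SE 0.361, edgeR adjusted p = 2.51e-05), and was at 2.31 and 2.02 CPM in dual-treated lungs (log2FC against LPS -2.30, SE 0.387, edgeR adjusted p = 0.000786). *Top2a*, a topoisomerase of dividing cells, was at 3.67, 4.36 and 4.09 CPM in control, 11.1, 9.18 and 10.7 CPM in LPS and 38.2 and 17.7 CPM in dual-treated lungs. Its log2FC from LPS to dual treatment was 1.44 (SE 0.275, edgeR adjusted p = 0.00168), and 0.75 without dual-treated mouse 2. Its log2FC against control was 2.79 (SE 0.286, edgeR adjusted p = 0.000337), and 2.10 without that mouse. *Mcm4*, a subunit of the replicative helicase, rose by a log2FC of 0.79 (SE 0.0961, edgeR adjusted p = 6.77e-05) and fell from LPS to dual treatment (log2FC -0.54, edgeR adjusted p = 0.00205), the latter not called with scaling by library size alone (-0.22, adjusted p = 0.141). In contrast, *Bub1*, *E2f1* and *Mcm7* fell with LPS. The log2FC was -1.96 for the spindle checkpoint kinase gene *Bub1* (SE 0.360, edgeR adjusted p = 0.000983) and -1.44 for the transcription factor gene *E2f1* (SE 0.258, edgeR adjusted p = 0.00084). *Bub1* and *E2f1* had the largest rises of the 26 from LPS to dual treatment, with a log2FC of 1.99 and 1.78 (edgeR adjusted p = 0.00177 and 0.000506). For *Mcm7* the log2FC with LPS was -0.34 (SE 0.121, edgeR adjusted p = 0.0324). The call of *Mcm7* was lost without control mouse 1 or 4 or LPS mouse 1 or 7 (edgeR adjusted p from 0.0559 to 0.128). DESeq2 called 2 of the 26 genes lower with LPS, *Bub1* among them (DESeq2 adjusted p = 1.21e-05).

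Of the 5 PAD genes 3 were tested, and *Padi3* and *Padi6* did not pass the filter on low counts. *Padi4*, which encodes the enzyme described as co-repressor, was at 6.65, 3.47 and 10.6 CPM in control lungs, at 4.45, 5.20 and 4.19 CPM in LPS lungs and at 11.4 and 23.1 CPM in dual-treated lungs. Control and LPS lungs overlapped, and both dual-treated lungs were above every other lung. Its log2FC was -0.58 with LPS (SE 0.392, edgeR adjusted p = 0.213), which was called at -0.91 without control mouse 2 (edgeR adjusted p = 0.0398). From LPS to dual treatment it was 1.90 (SE 0.421, edgeR adjusted p = 0.00371), and 1.29 without dual-treated mouse 5 (edgeR adjusted p = 0.0499). Against control it was 1.32 (SE 0.412, edgeR adjusted p = 0.0578), and 1.74 and called without control mouse 4 (edgeR adjusted p = 0.0344). DESeq2 called *Padi4* higher than in control lungs. The neutrophil genes *Csf3r*, *Cxcr2* and *Retnlg* rose as well from LPS to dual treatment, with a log2FC of 1.05, 1.48 and 1.49 (edgeR adjusted p = 0.0106, 0.00863 and 0.00579). Like *Padi4*, they were higher in dual-treated mouse 5 than in mouse 2, as were *S100a8*, *S100a9*, *Mmp9*, *Ly6g* and *Mpo*, but not *Elane*. From LPS to dual treatment the other 6 of 9 neutrophil genes fell (*Ly6g*, *Mpo* and *Elane*) or were not called. More *Padi4* per cell and more cells that express it cannot be told apart. These are transcript levels, and neither the activity of PAD4 nor its presence at any p53 target was measured by this assay.

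Genes of several cell types were also followed, and in whole tissue fewer cells of a type and less RNA per cell cannot be told apart. The summed level of 9 neutrophil genes, such as *S100a9*, was 227, 126 and 131 CPM in control lungs, 2180.4, 3023 and 1905 CPM in LPS lungs and 1733 and 2411 CPM in dual-treated lungs. All 9 rose with LPS, and 6 were called higher with dual treatment than in controls. Dual-treated lungs had more *Csf3r*, *Cxcr2* and *Retnlg* than LPS lungs, while *Ly6g*, *Mpo* and *Elane* fell, with a log2FC of -2.75, -4.18 and -4.16 (edgeR adjusted p = 0.00732, 0.000262 and 0.000112). The summed level of 6 endothelial genes was 2742, 3061 and 3172 CPM in control, 1969, 1619 and 1575 CPM in LPS and 2852 and 2974 CPM in dual-treated lungs. *Pecam1*, *Kdr*, *Tek* and *Tie1* fell with LPS and rose from LPS to dual treatment, while *Cdh5* and *Cldn5* were not called. The similar sums in control and dual-treated lungs hid differences between genes, and against control 1 of the 6 was called higher and 1 lower. Mean *Pecam1* was 657 CPM in control and 993 CPM in dual-treated lungs, and mean *Kdr* was 348 and 186 CPM. Of 9 lung epithelial genes, such as *Scgb1a1*, 4 rose and 2 fell with LPS, 5 fell from LPS to dual treatment, and 2 were lower in dual-treated than in control lungs. Of 5 erythroid genes, such as *Hbb-bs*, all 5 were lower in dual-treated than in LPS and in control lungs, with 426 and 381 CPM in sum against at least 1468 CPM in any other lung. Of 7 macrophage genes 2 fell with LPS, 5 rose from LPS to dual treatment, and 4 were higher and 1 lower in dual-treated than in control lungs. Of 8 genes of T, B and NK cells 1 rose and 4 fell with LPS, and 3 rose and 2 fell from LPS to dual treatment. Of 5 genes of fibroblasts and pericytes 1 rose and 2 fell with LPS, and 3 rose from LPS to dual treatment. With LPS, the share called was 66.7% for epithelial and endothelial genes, 62.5% for T, B and NK cells and 60.0% for fibroblasts and pericytes. It was 100% for neutrophil, 28.6% for macrophage and 0% for erythroid genes, beside 66.5% of all tested genes. From LPS to dual treatment it was 55.6% for epithelial, 66.7% for endothelial and neutrophil, 71.4% for macrophage and 100% for erythroid genes. There it was 62.5% for T, B and NK cells and 60.0% for fibroblasts and pericytes, beside 59.1% of all tested genes. Against control it was 66.7% for neutrophil, 71.4% for macrophage, 22.2% for epithelial, 33.3% for endothelial and 100% for erythroid genes. There it was 0% for T, B and NK cells and for fibroblasts and pericytes, beside 16.1% of all tested genes. The part of these differences in the levels of the p53 genes was not tested.

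Genes whose log2 CPM over the 8 libraries was most like that of *Trp53*, *Cdkn1a* and *Mdm2* were sought among 15612 genes. The most similar to *Trp53* were *Rexo2*, *Arhgap19* and *Mix23*, with Pearson's r of 0.990, 0.986 and 0.986, and 50 genes had an r above 0.95. For *Cdkn1a* they were *Map4k4*, *Pim1* and *Cxcl10*, with r of 0.999, 0.998 and 0.998, and 1647 genes had an r above 0.95. For *Mdm2* they were *Tbk1*, *Tmem248* and *Tmem87b*, with r of 0.999, 0.999 and 0.998, and 1683 genes had an r above 0.95. The libraries share groups and scaling, so that these values are descriptions.

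All 10 genes were located on GRCm39, the build to which the reads were aligned. *Cdkn1a* lies at chr17:29309936-29319701 on the plus strand, *Trp53* at chr11:69469669-69482701 on the plus strand, *Mdm2* at chr10:117524780-117546730 on the minus strand, *Sesn1* at chr10:41685931-41784423 on the plus strand and *Trp53inp1* at chr4:11156412-11175230 on the plus strand. Exons of some of these genes overlap exons of other genes, between which the counting may divide or drop reads. The opposite-strand gene *Wrap53* shares 263 exon bases with *Trp53*, and it was between 9.76 and 13.3 CPM in all 8 libraries. *Cep57l1* shares 548 bases with *Sesn1* and was at most 3.82 CPM. *Dino*, a non-coding gene on the opposite strand, shares 504 bases with *Cdkn1a*, and it was at 0.734, 0.798 and 1.52 CPM in control, 7.48, 5.60 and 6.25 CPM in LPS and 2.22 and 1.05 CPM in dual-treated lungs. *Nudcd2* shares 114 bases with *Ccng1*, and *Gm45808* shares 192 bases with *Bax*. The pseudogene *Trp53-ps* had at most 10 counts in any library.

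The genome sequence within 5 kb of the 5′ end of each gene's main transcript was searched on both strands for pairs of the p53 consensus half-site, with 0 to 13 bases between them and no mismatch. Such a pair was present at 3 of the 10 genes and at 4 of the 33 further targets (12.1%), against 655 of 21757 protein-coding genes (3.01%). The sequences are shown because they match the consensus that p53 is known to bind, not because binding at them is known. The 4-base core of each half-site is in capitals, and each sequence is written on the strand of its gene.
*Cdkn1a*: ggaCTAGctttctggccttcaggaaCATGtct
*Trp53inp1*: aaaCATGtccaggaCTAGcct
*Zmat3*: aaaCAAGcccaggCATGtct
The match at *Cdkn1a* is at chr17:29309880-29309911 on the plus strand, 2858 bases before the 5′ end of the main transcript, outside the annotated gene and in exon 2 of the non-coding gene *Gm64878*, with 12 bases between the half-sites. The match at *Trp53inp1* is at chr4:11155112-11155132 on the plus strand, 1300 bases before the 5′ end, outside the gene and in exon 1 of the non-coding gene *Gm69016*, with 1 base between the half-sites. The match at *Zmat3* is at chr3:32418480-32418499 on the minus strand, 1409 bases after the 5′ end, in exon 1 of a transcript with a retained intron and outside the coding sequence and UTRs, with 0 bases between the half-sites. Of these genes, *Cdkn1a* and *Trp53inp1* rose with LPS and *Zmat3* was not called. A match is a description of the sequence, and binding of p53 was not measured.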

How the data were processed

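Lung RNA-seq of 8 mice was analysed from raw counts per gene that the authors deposited for each mouse, without normalization. Per the submitters' processing notes, reads passed FastQC 0.11.9 and Trim Galore, were aligned to GRCm39 with HISAT2 2.2.1 and counted with featureCounts 2.0.1. The annotation release, strand setting and handling of multimapping reads are not given in the sources used here. Symbols, coordinates and exon lengths came from GENCODE M39, which matched 54749 of 55416 identifiers; the 667 others held 0.0533% of counts.

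Normalization (TMM), filtering (filterByExpr by group) and quasi-likelihood tests were done by edgeR 4.0.16 in R 4.3.3. A single model held the 8 libraries, with group as its factor and 5 residual degrees of freedom. The procedure was also run on simulated counts with a fixed dispersion of 0.05 and few changed genes. That run does not show how it performs here, where 66.5% of tested genes were called with LPS. SEs came from the log2FC and its F statistic, and log2 CPM used a prior count of 2. Alternatives were DESeq2 1.42.0, other scalings and filters, the compared groups only, the study's cut-offs, which it used with DESeq2 (fold change over 2, p under 0.05, taken here as unadjusted), put on the edgeR values, each mouse left out, and LPS mouse 1 as the only LPS mouse.

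Named were the 10 genes, *Padi4*, *Mdm4*, and from each further list the 3 largest rises and the 3 largest falls among called genes with a mean of at least 1 CPM, with LPS and from LPS to dual treatment. Overlapping genes were looked up after the data were seen. The members and lists were chosen with earlier results of these data known.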

Additional observations from a re-analysis of the deposited data

How the results depend on the processing

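Of 500 log2FC values of the 10 genes under other settings, 451 kept their direction and side of the threshold, 28 gained a call, 16 lost one and 5 changed sign. With library size alone, 5 of the 10 genes were lower with LPS, 3 were higher in dual-treated against LPS lungs, and 1 was higher and 2 lower in dual-treated against control lungs, beside 42.2%, 42.5%, 9.78% and 5.55% of all tested genes. In dual-treated against LPS lungs 2 were higher with upper quartile factors, without a filter on low counts and with LPS mouse 1 as the only LPS mouse, beside 34.4%, 19.2% and 25.9% of all tested genes. In dual-treated against control lungs 4 were lower with DESeq2, 3 with only the 2 groups compared, and 2 with RLE size factors, upper quartile factors, no filter, or at least 10 counts in every library, beside 10.4%, 9.87%, 7.74%, 7.63%, 4.82% and 9.64% of all tested genes. Without a filter, or with only the 2 groups compared, 1 was higher there, beside 6.15% and 11.9% of all tested genes. By the study's cut-offs on the edgeR values, *Cdkn1a*, *Sesn1*, *Trp53inp1* and *Mdm2* were still higher with LPS and lower from LPS to dual treatment. *Trp53* was still higher from LPS to dual treatment. By these cut-offs 0 of the 10 genes were lower with LPS and 0 in dual-treated against control lungs, beside 21.8% and 3.43% of all tested genes. Of the further targets 5 were lower with LPS, 10 from LPS to dual treatment and 1 in dual-treated against control lungs, beside 21.8%, 14.7% and 3.43% of all tested genes. With only the 2 groups compared, 5 further targets were higher in dual-treated against control lungs, beside 11.9% of all tested genes.

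With each mouse left out in turn, 1 to 2 of the 10 genes were higher in dual-treated against LPS lungs, beside 23.5% to 31.2% of all tested genes. In dual-treated against control lungs 0 to 1 of the 10 genes were higher and 0 to 2 lower. Of the further targets 1 to 4 were higher and 0 to 3 lower there. In that comparison 4.04% to 10.7% of all tested genes were higher and 2.2% to 9.06% lower. There, log2FC ran from -0.19 to 0.65 for *Cdkn1a*, from -0.01 to 0.22 for *Mdm2*, from -0.62 to 0.60 for *Trp53inp1*, from -0.29 to 0.24 for *Bub1*, from -0.17 to 0.00 for *Chek2*, from -0.17 to 0.07 for *Mcm7*, from -0.07 to 0.05 for *Rchy1*, from -0.39 to 0.28 for *Steap3*, from -0.22 to 0.16 for *Trp73* and from -0.13 to 0.03 for *Usp7*. In dual-treated against LPS lungs it ran from -0.59 to 0.13 for *Cdk1*. With library size alone it was 0.11 for *Bax*, 0.13 for *Ccng1* and 0.18 for *Cdk1* there, and 0.03 for *Mcm7* and *Rchy1* against control. With only the 2 groups compared it was 0.00 for *Mcm7* and *Rchy1*, and for *Steap3* it was -0.00 with DESeq2 and with RLE size factors. The cause of these changes was not tested.

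No paired analysis was made, since the paper describes the mice as divided at random into the groups and gives no pairing between them. In dual-treated against control lungs the 95% interval of the log2FC differed in width between the 10 genes: it ran from -0.24 to 0.88 for *Cdkn1a* and from -0.11 to 0.39 for *Mdm2*. Where leaving out a mouse leaves 1 in a group, that mouse is assumed to vary like the other groups.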
